A study of Mus musculus with 6 samples.

Results

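The uroplakins are the membrane proteins of the urothelial plaque, and the family was taken here as *Upk1a*, *Upk1b*, *Upk2*, *Upk3a* and *Upk3b*, which are 5 of the 56748 genes in each table. The members were found by matching the Ensembl identifiers of the deposited gene tables to mouse symbols. The family was chosen by earlier fold changes between these same genotypes, among them that of *Upk1a*. The difference between genotypes in the members is therefore given as a description and without a p-value. Where calls of the members are counted below, nothing is read from the counts.

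RNA was taken from the uterus of mice labelled C57BL/6 on day 4 of pregnancy at 1600 h, after mating with fertile wildtype males, in 3 control and 3 *Gp130* ecKO uteri. *Gp130* ecKO females carried *Ltf* iCre/+ with *Gp130* flox/flox, and *Gp130*, named *Il6st* in the tables, encodes the signal-transducing receptor subunit shared by the leukemia inhibitory factor and interleukin-6 cytokines. Controls are labelled wildtype, and the study's methods describe its controls as floxed females without the iCre or wildtype females, so which of these each control uterus was is not known here. *Ltf*-iCre recombines in the epithelium of the sexually mature uterus and is also known to act in some myeloid cells. The samples are labelled uterus and the series' design text speaks of endometrium, so how much muscle and outer mesothelium was taken along with epithelium, stroma and vessels is not known here. Nothing in the labels says which libraries came from separate animals, so the standard errors and p-values below measure the spread between these samples.

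In the urothelium of the bladder, uroplakins form heterodimers in the endoplasmic reticulum, and the dimers pack into the rigid plaques of the apical membrane. UPIa and UPIb, encoded by *Upk1a* and *Upk1b*, are tetraspanins, proteins with a pair of extracellular loops and several membrane passes. UPIa pairs with UPII, encoded by *Upk2*, and carries the sugar bound by the FimH adhesin of uropathogenic *Escherichia coli*, while UPIb pairs with UPIIIa or UPIIIb, encoded by *Upk3a* and *Upk3b*. Outside the urothelium, *Upk1b* and *Upk3b* are known from mesothelium, the flat epithelium that covers organs in the body cavity.

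The stretch before the transcription start is shown for the member with the largest difference between genotypes and for the most abundant member in controls, because the study concerns a signalling pathway that ends on DNA-bound factors. RefSeq promoter entries on GRCm38.p6 were matched for 3 of the 5 members, *Upk1a*, *Upk3a* and *Upk3b*. Each sequence below is the 250 bases before the start, 5′ to 3′ on the strand of the gene. The *Upk1a* stretch lies at chr7:30612735-30612984 on the minus strand with a GC content of 54.4%, and the *Upk3b* stretch lies at chr5:136038246-136038495 on the plus strand with a GC content of 60.8%.
Upk1a: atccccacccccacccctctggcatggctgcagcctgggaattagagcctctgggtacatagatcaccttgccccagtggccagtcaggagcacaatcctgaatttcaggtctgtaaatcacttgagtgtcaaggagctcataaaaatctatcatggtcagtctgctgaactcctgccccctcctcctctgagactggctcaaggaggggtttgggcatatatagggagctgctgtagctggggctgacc
Upk3b: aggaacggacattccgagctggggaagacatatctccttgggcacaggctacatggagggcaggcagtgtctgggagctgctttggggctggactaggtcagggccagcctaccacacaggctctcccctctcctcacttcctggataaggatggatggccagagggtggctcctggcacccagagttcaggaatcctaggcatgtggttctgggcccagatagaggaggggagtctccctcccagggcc

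Each motif was searched on both strands in these stretches. TTCNNNGAA, the letters bound by STAT factors, was found in 7.02% of 32851 promoters of the same length. AACCNGTT, the Grainyhead letters, was found in 1.79% of them. The palindromic estrogen response element, GGTCA and its reverse complement TGACC with 3 bases between them, was found in 0.0639%. The direct repeat bound by nuclear receptor dimers, AGGTCA and again AGGTCA with 1 base between them, was found in 0.0335%. The stretches of *Upk1a*, *Upk3a* and *Upk3b* held 0 matches to any of these motifs, which says only that these letters are not in these windows. Without a match, no base is printed in capitals.

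Library totals ran from 13960748 estimated reads in control 3 to 25906443. The level of *Il6st* was 631.1, 678.1 and 451.6 CPM, the count scaled to the TMM-normalized library size, in the control uteri and 387.7, 349.8 and 361.8 CPM in the *Gp130* ecKO uteri, without overlap, with a log2 fold change of -0.68 (SE 0.21, n = 3 per group) and an adjusted p of 0.120 by edgeR's quasi-likelihood test. Of 16605 genes tested, 26 passed an adjusted p below 0.05 with more than a 2-fold difference, which is 0.157% of them. A total of 4151 genes had an unadjusted p below 0.05 in the same test. Control 2 was closer to *Gp130* ecKO 2 and 3 than to its own group, but not to *Gp130* ecKO 1. Across genes, its log2 CPM correlated at 0.946, 0.967 and 0.963 with *Gp130* ecKO 1, 2 and 3. With controls 1 and 3 it correlated at 0.958 and 0.946. Without control 2 the fitted log2 fold changes of *Upk1a*, *Upk1b* and *Upk3b* were 5.04, -0.77 and -0.82, against 5.10, -0.77 and -0.83 with it.

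Among the members, *Upk1a* was the uroplakin whose level differed most between genotypes: it was below 1 TPM in each control uterus and at 5.04 TPM or more in each *Gp130* ecKO uterus. *Upk3b* and *Upk1b* were present in all 6 uteri, with lower means in *Gp130* ecKO uteri and overlapping groups. *Upk2* was represented by a handful of reads in every uterus, and *Upk3a* by none.

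*Upk1a* (ENSMUSG00000006313; GRCm39 chr7:30302510-30312272, minus strand) encodes the tetraspanin UPIa. The control uteri held 21, 15 and 7 counts, or 0.850, 0.578 and 0.467 CPM. The *Gp130* ecKO uteri held 842, 117 and 594 counts, or 38.1, 4.50 and 24.6 CPM. The lowest knockout value exceeded the highest control value, and *Gp130* ecKO 2 lay far below the other two knockouts. On the TPM scale, which also divides by transcript length, the means were 0.607 ± 0.155 in controls and 22.3 ± 17.1 in *Gp130* ecKO (SD, n = 3 per group). The ratio of mean CPM was 35.5, and the fitted log2 fold change was 5.10 (SE 0.83). The fitted log2 fold change was 4.49 without *Gp130* ecKO 1 and 5.60 without *Gp130* ecKO 2, the lowest and the highest when any 1 uterus was left out.

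The spread of *Upk1a* among the knockouts was itself wide. Its highest *Gp130* ecKO uterus was 8.46 times its lowest, against 1.82 times in controls. On the log2(CPM + 0.5) scale the range within *Gp130* ecKO was 2.95, and 0.711% of the tested genes had a range at least as large in that group. In controls the range was 0.48, which 62.2% of genes reached or passed. In bulk uterine RNA, more cells with *Upk1a* and more *Upk1a* RNA per cell cannot be told apart, and the same holds for each lower level given below.

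*Upk2* (ENSMUSG00000041523; chr9:44364012-44366273, minus strand) encodes UPII, the partner of UPIa. The control uteri held 19, 4 and 2 counts and the *Gp130* ecKO uteri 14, 4 and 9 counts, too few for the filter on low counts. The TPM values were 0.94, 0.20 and 0.18 in controls and 0.87, 0.23 and 0.46 in *Gp130* ecKO, so the groups overlapped and the highest value was in control 1. Pooled over each group, *Upk2* stood at 0.381 CPM in controls (95% exact Poisson interval 0.246 to 0.562) and at 0.374 CPM in *Gp130* ecKO (0.246 to 0.544). These intervals cover counting error only, and the reads carry no molecular identifiers. The gene lies on the opposite strand of the long noncoding RNA *C030014I23Rik*, with 2.95% of the 75-base windows of *Upk2* shared on that strand. The libraries were made with a strand-specific kit, and whether strand was used in counting is not given in the sources used here.

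The partners *Upk1a* and *Upk2* therefore had different relations in the genotypes. In controls the level of *Upk1a* per effective transcript length was 0.828, 2.81 and 2.62 times that of *Upk2*, with 95% counting intervals of 0.424 to 1.63, 0.895 to 11.6 and 0.499 to 25.9, each of which includes equality. In *Gp130* ecKO the ratio was 45.0, 21.9 and 49.4, with intervals of 26.7 to 82.7, 8.33 to 81.7 and 25.9 to 109. All knockout ratios lay above all control ratios, a difference that follows from the *Upk1a* values that brought the family to attention.

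*Upk1b* (ENSMUSG00000049436; chr16:38591981-38620727, minus strand) encodes the second uroplakin tetraspanin, UPIb. The control uteri held 308, 224 and 79 counts, or 12.5, 8.64 and 5.27 CPM, and the *Gp130* ecKO uteri 170, 127 and 72 counts, or 7.69, 4.88 and 2.99 CPM. The lowest value was in *Gp130* ecKO 3, the highest in control 1, and the groups overlapped. Mean TPM was 6.47 ± 1.83 in controls and 4.57 ± 2.24 in *Gp130* ecKO (SD, n = 3 per group), and the fitted log2 fold change was -0.77 (SE 0.45). The estimated mean transcript length of *Upk1b* ran from 1439 to 1894 bases between libraries, so the TPM and CPM values need not keep the same proportions.

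*Upk3a* (ENSMUSG00000022435; chr15:84901335-84906761, plus strand) encodes UPIIIa, the urothelial partner of UPIb, and held 0 counts in each of the 6 uteri. Taking 3 counts as the limit that a count of 0 allows, the level could have reached 0.115 to 0.200 CPM, depending on the library, or 0.0218 CPM over all 6 libraries together. The observed *Upk1b* level per effective length was 57.5, 41.8 and 17.7 times that limit in controls and 33.9, 31.6 and 13.4 times in *Gp130* ecKO. With the counting error of both genes, the lower 95% limits of the ratio of *Upk1b* to *Upk3a* were 46.45, 33.7 and 14.08 in controls. In *Gp130* ecKO they were 27.29, 25.32 and 10.65. The presence of *Upk3a* could not be detected at this depth in either genotype.

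*Upk3b* (ENSMUSG00000042985; chr5:136067350-136075342, plus strand) encodes UPIIIb, the other partner of UPIb. The control uteri held 2660, 1618 and 261 counts, or 108, 62.4 and 17.4 CPM, and the *Gp130* ecKO uteri 1342, 511 and 602 counts, or 60.7, 19.7 and 25.0 CPM. Control 1 had the highest value and control 3 the lowest, so the *Gp130* ecKO values lay inside the control range. Mean TPM was 22.9 ± 15.7 in controls and 14.0 ± 9.04 in *Gp130* ecKO (SD, n = 3 per group), and the fitted log2 fold change was -0.83 (SE 0.66), ranging from -1.48 without *Gp130* ecKO 1 to -0.18 without control 1. The range within controls was 2.59 on the log2(CPM + 0.5) scale, as large in 2.31% of tested genes. The pair *Upk3b* and *Upk1b* stood in a ratio per effective length of 4.55, 3.80 and 1.45 in controls and 3.89, 1.59 and 4.40 in *Gp130* ecKO, above 1 in every uterus and overlapping between groups.

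**Figure D1:**
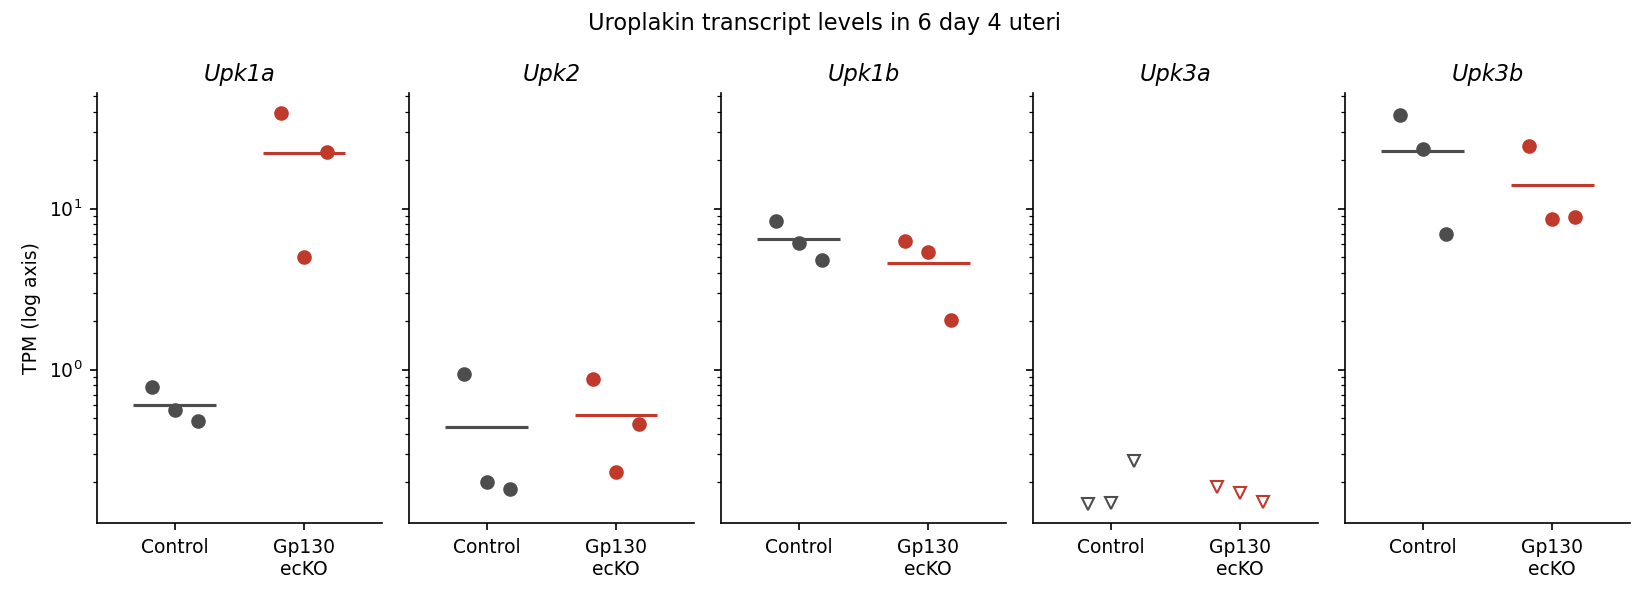
TPM of the 5 uroplakins in each uterus on a log axis, with points for single control and *Gp130* ecKO uteri, bars for the group means (n = 3) and open triangles for the limit set by 3 counts where *Upk3a* had 0 counts. *Upk1a* is the member whose groups separate, at 0.48 to 0.78 TPM in controls and 5.04 to 39.29 TPM in *Gp130* ecKO.

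By this call rule, 0 of the 3 members that passed the filter on low counts were called, against 0.157% of all genes in the fit, of which 0.126% lay above and 0.0301% below the controls. Groups did not overlap for 1 of these members, *Upk1a*, and for 31.3% of all tested genes. Since the contrast was known when the family was chosen, nothing is read from these counts.

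The order of the mean levels differed between the genotypes, though *Gp130* ecKO 2 had the same order as controls 2 and 3. In controls the order by mean TPM was *Upk3b*, *Upk1b*, *Upk1a*, *Upk2* and *Upk3a*, in which *Upk3b* and *Upk1b* overlapped over the uteri, as did *Upk1a* and *Upk2*, whereas *Upk1b* was above *Upk1a* in every control uterus. In *Gp130* ecKO the order was *Upk1a*, *Upk3b*, *Upk1b*, *Upk2* and *Upk3a*, and *Upk1a* overlapped with *Upk3b* and, through its low value in *Gp130* ecKO 2, with *Upk1b*. Summed over the family, the level was 48.5, 30.4 and 12.5 TPM in controls and 70.8, 19.2 and 34.0 TPM in *Gp130* ecKO, with overlap. *Upk1a* made up 1.61%, 1.85% and 3.85% of that sum in controls and 55.5%, 26.2% and 66.5% in *Gp130* ecKO. *Upk3b* was the leading member in all controls and in *Gp130* ecKO 2, with 44.5% of the sum there, and *Upk1a* was the leading member in *Gp130* ecKO 1 and 3.

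**Figure D2:**
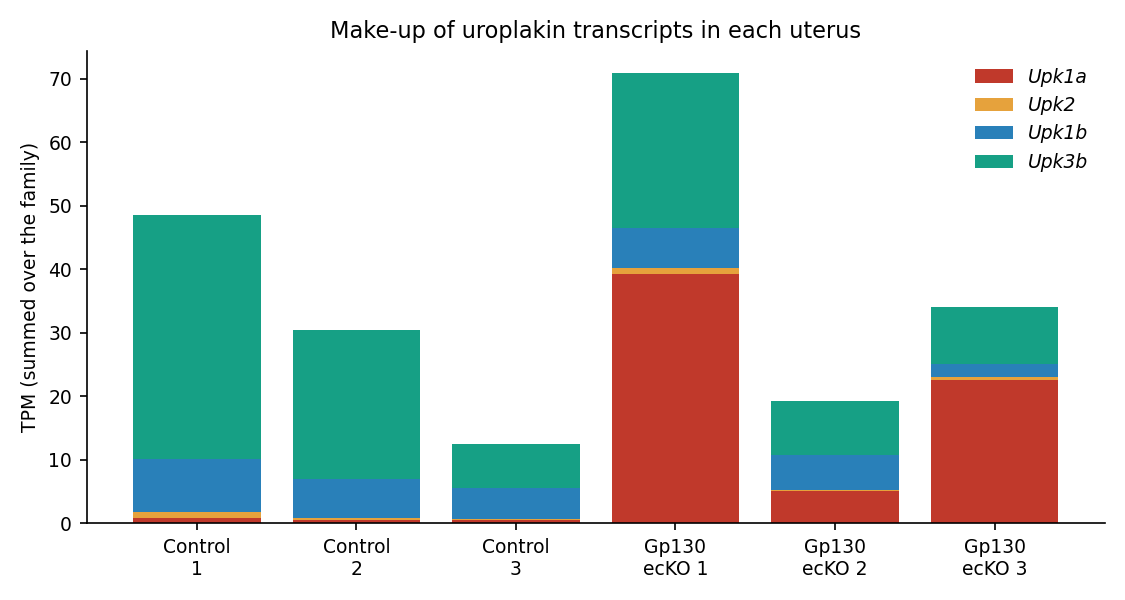
Uroplakin TPM stacked by member for each control and *Gp130* ecKO uterus. *Upk3b* fills 56.0% to 79.1% of the column in controls, and *Upk1a* fills 26.2% to 66.5% of it in *Gp130* ecKO.

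The genes whose values over the 6 uteri were most like those of each detected member were ranked by the root mean square difference of log2(CPM + 0.5) after each gene was centred on its mean. The measure includes the difference between genotypes, so the differences of these genes are given as a description too. Among the genes most like *Upk1a* was *Lamb3*, a chain of the basement membrane protein laminin-332, with a difference of 0.724. *Lamb3* stood at 11.5, 16.7 and 8.07 CPM in controls and at 173.6, 34.7 and 84.2 CPM in *Gp130* ecKO, and it was likewise lowest among the knockouts in *Gp130* ecKO 2. It was followed by the kallikrein-related peptidase *Klk10* (0.78), the calmodulin-like *Calml3* (0.807) and the Kelch-like *Klhl14* (0.89).

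*Upk1b* and *Upk3b* had other neighbours by this measure. Nearest to *Upk1b* were *Ccdc81* (0.183), the sodium pump regulator *Fxyd6* (0.201), *Sval2* (0.206), the neurexin gene *Nrxn2* (0.216) and *Stat3* (0.231), the transcription factor activated downstream of GP130. *Stat3* stood at 468.3, 319.6 and 262.3 CPM in controls and at 238.1, 196.9 and 161.5 CPM in *Gp130* ecKO, and like *Upk1b* it was highest in control 1 and lowest in *Gp130* ecKO 3. Nearest to *Upk3b* were the membrane aminopeptidase *Xpnpep2* (0.11), *Lrrn4* (0.214), the claudin *Cldn15* (0.247), the sulfotransferase *Chst4* (0.265) and *Fam177a* (0.27). Of all tested genes, *Upk1b* held rank 59 in likeness to *Upk3b*, while *Upk3b* held rank 1816 in likeness to *Upk1b*. *Upk1a* was far from both, with *Upk3b* at rank 12954 and *Upk1b* at rank 13468 in likeness to *Upk1a*.

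**Figure D3:**
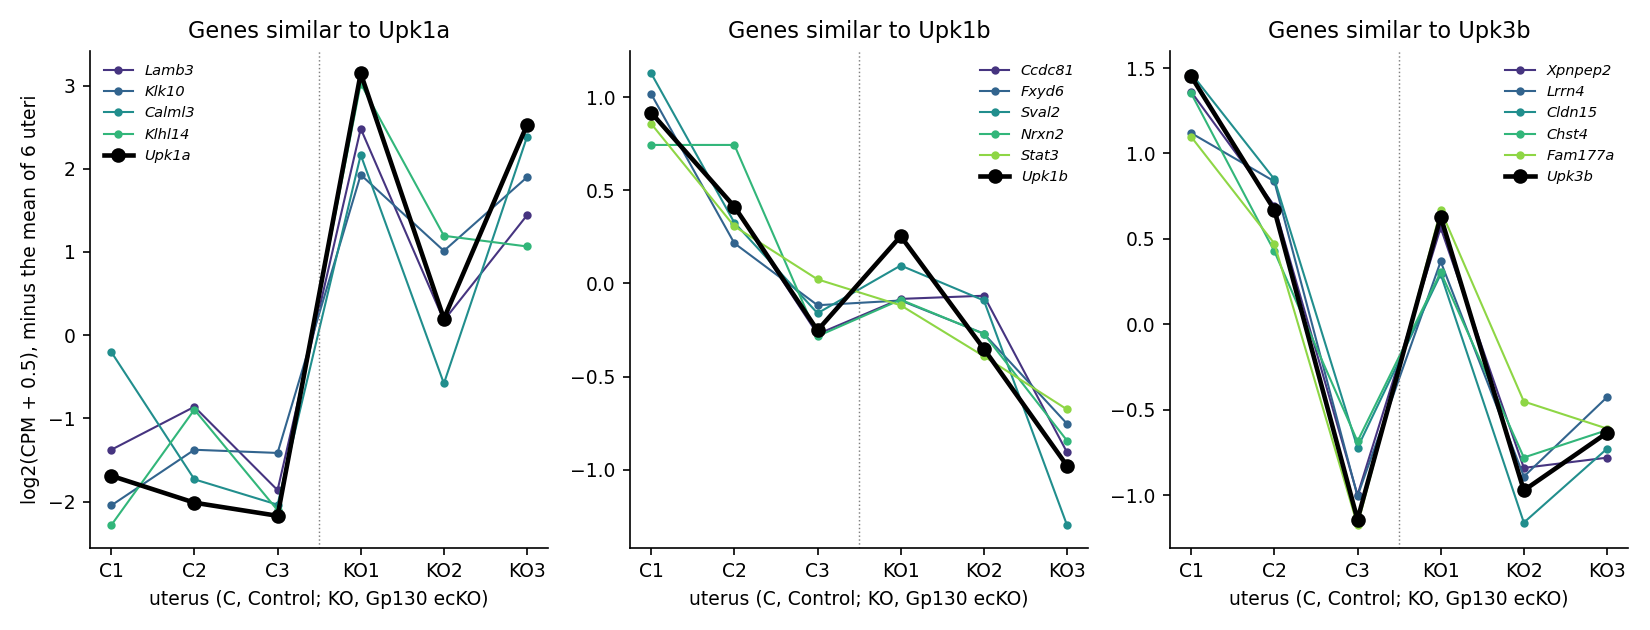
log2(CPM + 0.5), centred on the gene's mean over the 6 uteri, for *Upk1a*, *Upk1b* and *Upk3b* and for genes most like each, 4 for *Upk1a* and 5 for the others, with 1 line per gene and the uteri along the horizontal axis. *Upk1a* steps up between the genotypes, *Calml3* overlaps between them, *Upk1a* and 3 of the 4 genes drawn with it are lowest among the knockouts in *Gp130* ecKO 2 (*Klhl14* in *Gp130* ecKO 3), and the *Upk3b* lines are lower at control 3 than at the other controls.

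*Lrrn4* is also on the list of mesothelial markers, so the relation of *Upk3b* to it was computed after the values were seen. *Lrrn4* itself ran at 25.5, 20.9 and 5.47 CPM in controls and 14.96, 5.96 and 8.42 CPM in *Gp130* ecKO. The ratio of *Upk3b* to *Lrrn4* in CPM was 4.22, 2.99 and 3.18 in controls and 4.05, 3.30 and 2.97 in *Gp130* ecKO, and its group means were 3.46 and 3.44. *Lrrn4* ranks second of all tested genes in likeness to *Upk3b* over the same uteri, so the narrow range of the ratio follows from how the gene was picked. Another mesothelial marker, the surface protein mesothelin (*Msln*), stood at 27.4, 19.2 and 5.73 CPM in controls and at 12.3, 6.73 and 8.25 CPM in *Gp130* ecKO, lowest in control 3 as *Upk3b* was. Other markers on that list ran differently, since *Wt1*, at 138.5 CPM, and *Aldh1a2*, at 130.1 CPM, were highest in control 3, and so was the sum over the list, at 304.0 CPM.

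Over the whole mesothelial list, 7 of 7 markers had lower fitted levels in *Gp130* ecKO and 0 were called. The summed level was 215.0 to 304.0 CPM in controls and 82.9 to 128.6 CPM in *Gp130* ecKO, without overlap (exact two-sided permutation p = 0.1, the smallest that 3 against 3 allows; adjusted p = 0.22 over 11 lists). *Wt1* and *Aldh1a2* on this list are also expressed in uterine stroma, and together they made up the larger part of the sum in every uterus. *Wt1* stood at 89.6, 65.4 and 138.5 CPM in controls and at 29.0, 59.9 and 25.5 CPM in *Gp130* ecKO. *Aldh1a2* stood at 55.9, 75.1 and 130.1 CPM in controls and at 28.8, 43.6 and 22.8 CPM in *Gp130* ecKO. Per 1000 CPM of this sum, *Upk3b* stood at 393.0, 290.2 and 57.3 CPM in controls and at 534.2, 152.8 and 301.0 CPM in *Gp130* ecKO, and the groups overlapped as they did without the scaling, while the ratio of means was 1.33 here and 0.562 without it. *Upk1b* on the same scale stood at 45.5, 40.2 and 17.3 CPM in controls and at 67.7, 38.0 and 36.0 CPM in *Gp130* ecKO, with overlap and a ratio of means of 1.38. The part of mesothelial content in the *Upk3b* and *Upk1b* values was not tested.

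Among markers of the urothelium other than uroplakins, 3 of 9 passed the filter and 0 were called. The simple-epithelial keratin *Krt7* stood at 124.3, 106.7 and 100.8 CPM in controls and at 340.3, 147.1 and 290.9 CPM in *Gp130* ecKO, with a log2 fold change of 1.23 (SE 0.30; edgeR adjusted p = 0.0922), and it too was lowest among the knockouts in *Gp130* ecKO 2. *Krt13*, the keratin of intermediate urothelial and some squamous cells, had a log2 fold change of 3.54 (SE 0.69; edgeR adjusted p = 0.0677), with 0.0809 to 0.540 CPM in controls and 1.58 to 4.60 CPM in *Gp130* ecKO, the group through which it passed the filter. The basal keratin *Krt14* and the superficial keratin *Krt20* were at most 0.526 CPM in any uterus, *Krt5*, *Psca* and *Snx31* were at most 0.0771 CPM, and *Shh* held 0 counts in all 6. The sum over the list was 102.2 to 126.2 CPM in controls and 150.2 to 347.6 CPM in *Gp130* ecKO, nearly all of it *Krt7* (exact two-sided permutation p = 0.1; adjusted p = 0.22). From the sums, the log2 difference of the list was 1.24, and from the mean of log2 levels it was 0.44.

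Markers of the uterine epithelium also had a higher sum in *Gp130* ecKO, at 5666 to 7506 CPM against 2491 to 4121 CPM in controls (exact two-sided permutation p = 0.1; adjusted p = 0.22), with 0 of 10 called. Per 1000 CPM of that sum, *Upk1a* stood at 0.217, 0.140 and 0.187 CPM in controls and at 5.07, 0.787 and 4.35 CPM in *Gp130* ecKO, so its lowest knockout value was 3.62 times its highest control value and the ratio of means was 18.7. On the same scale *Upk1b* stood at 3.19, 2.10 and 2.12 CPM in controls and at 1.02, 0.854 and 0.527 CPM in *Gp130* ecKO, which no longer overlapped. The ratio of *Upk1b* means was 0.325 here, on the other side of 1 from its ratio against the mesothelial sum, so its direction depended on the list it was set against.

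The other marker lists were summed in the same way. The oviduct and ciliated cell list had a sum of 53.3 to 97.5 CPM in controls and 557.2 to 1199 CPM in *Gp130* ecKO (exact two-sided permutation p = 0.1; adjusted p = 0.22), nearly all of it the oviductal glycoprotein gene *Ovgp1*, the 1 called marker on any list, while 0 of the other 4 were called and 3 of them had lower fitted levels, *Dnah5* at -2.10, *Tekt1* at -1.36 and *Ccdc39* at -0.20 on the log2 scale, and 1 a higher level, *Foxj1* at 2.11. The log2 difference of this list was 3.50 from the sums and 0.42 from the mean of log2 levels. Stromal markers had a sum of 2184 to 2401 CPM in controls and 903.3 to 1406 CPM in *Gp130* ecKO (exact two-sided permutation p = 0.1; adjusted p = 0.22). The sums overlapped for uterine gland, at 137.9 to 1068 CPM and 202.7 to 8729 CPM, for squamous epithelium, at 11.3 to 43.3 CPM and 8.08 to 46.6 CPM, and for preimplantation embryo, at 4.0 to 13.8 CPM and 5.38 to 7.73 CPM. They also overlapped for smooth muscle, at 415.3 to 1738 CPM and 308.2 to 2004 CPM, for leukocytes, at 34.8 to 67.5 CPM and 20.4 to 51.3 CPM, and for endothelium, at 206.8 to 515.7 CPM and 124.1 to 230.9 CPM, with the control range first in each case. The part of these cell types in the uroplakin values was not tested.

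A further 3 lists placed the members among genes they work with. Of 29 other tetraspanins, membrane organisers of the family to which UPIa and UPIb belong, 27 were tested, of which 8 had higher and 19 lower fitted levels in *Gp130* ecKO. Their median log2 fold change was -0.39, beside -0.05 over all tested genes, and 0 were called. By the quasi-likelihood test, 12 of the 27 had an unadjusted p below 0.05, beside 4151 of all 16605 tested genes. The abundant exosomal tetraspanin *Cd9* stood at 749.5, 702.7 and 589.2 CPM in controls and at 1192, 1033 and 994.8 CPM in *Gp130* ecKO, without overlap (log2 fold change 0.66, SE 0.21; edgeR adjusted p = 0.129). *Cd63*, a tetraspanin of late endosomes, had a log2 fold change of -0.76 (SE 0.19; edgeR adjusted p = 0.0941). The largest differences were those of *Tspan11*, at -2.42 (SE 0.71), and *Tspan4*, at -1.43 (SE 0.33), which the quasi-likelihood test did not call. EdgeR's exact test and likelihood ratio test called these 2, where they called 7.54% and 7.93% of all tested genes, DESeq2 called them and *Tspan6*, where it called 9.31%, and the quasi-likelihood test without control 2 called *Tspan4*, where it called 5.23%.

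Of 18 genes for the trafficking and fusion of plaque vesicles, 16 were tested, of which 11 had higher and 5 lower fitted levels. Their median log2 fold change was 0.16, and 0 were called, also by the exact test, the likelihood ratio test and DESeq2. By the quasi-likelihood test, 3 of the 16 had an unadjusted p below 0.05, beside 4151 of all 16605 tested genes. The recycling GTPases *Rab11a* and *Rab11b* and the endosomal SNARE *Vamp8* had log2 fold changes of -0.09, -0.00 and 0.15. *Rab27b*, the GTPase of fusiform vesicle exocytosis, had a log2 fold change of 0.86 (SE 0.58; edgeR adjusted p = 0.383), and its effector *Sytl2* one of -1.99 (SE 0.76; edgeR adjusted p = 0.169).

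Of 11 transcription factors of urothelial differentiation, 9 were tested, of which 6 had higher and 3 lower fitted levels. Their median log2 fold change was 0.62, and 0 were called, also by the exact test, the likelihood ratio test and DESeq2. The quasi-likelihood test without control 2 called *Elf3*, where it called 5.23% of all tested genes. On all 6 uteri, 4 of the 9 had an unadjusted p below 0.05 by that test, beside 4151 of all 16605 tested genes. The epithelial factor *Grhl2* stood at 53.2, 63.6 and 50.6 CPM in controls and at 130.6, 105.9 and 83.8 CPM in *Gp130* ecKO, without overlap (log2 fold change 0.94, SE 0.21; edgeR adjusted p = 0.0795). The epithelial regulators *Elf3* and *Klf5* had log2 fold changes of 0.93 (SE 0.46) and 0.62 (SE 0.31), the basal cell factor *Trp63* one of 1.46 (SE 0.45) and *Gata3* one of -1.57 (SE 0.59), none of which passed the test on all 6 uteri. *Grhl3* and *Foxa1* were at or near 0.

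**Figure D4:**
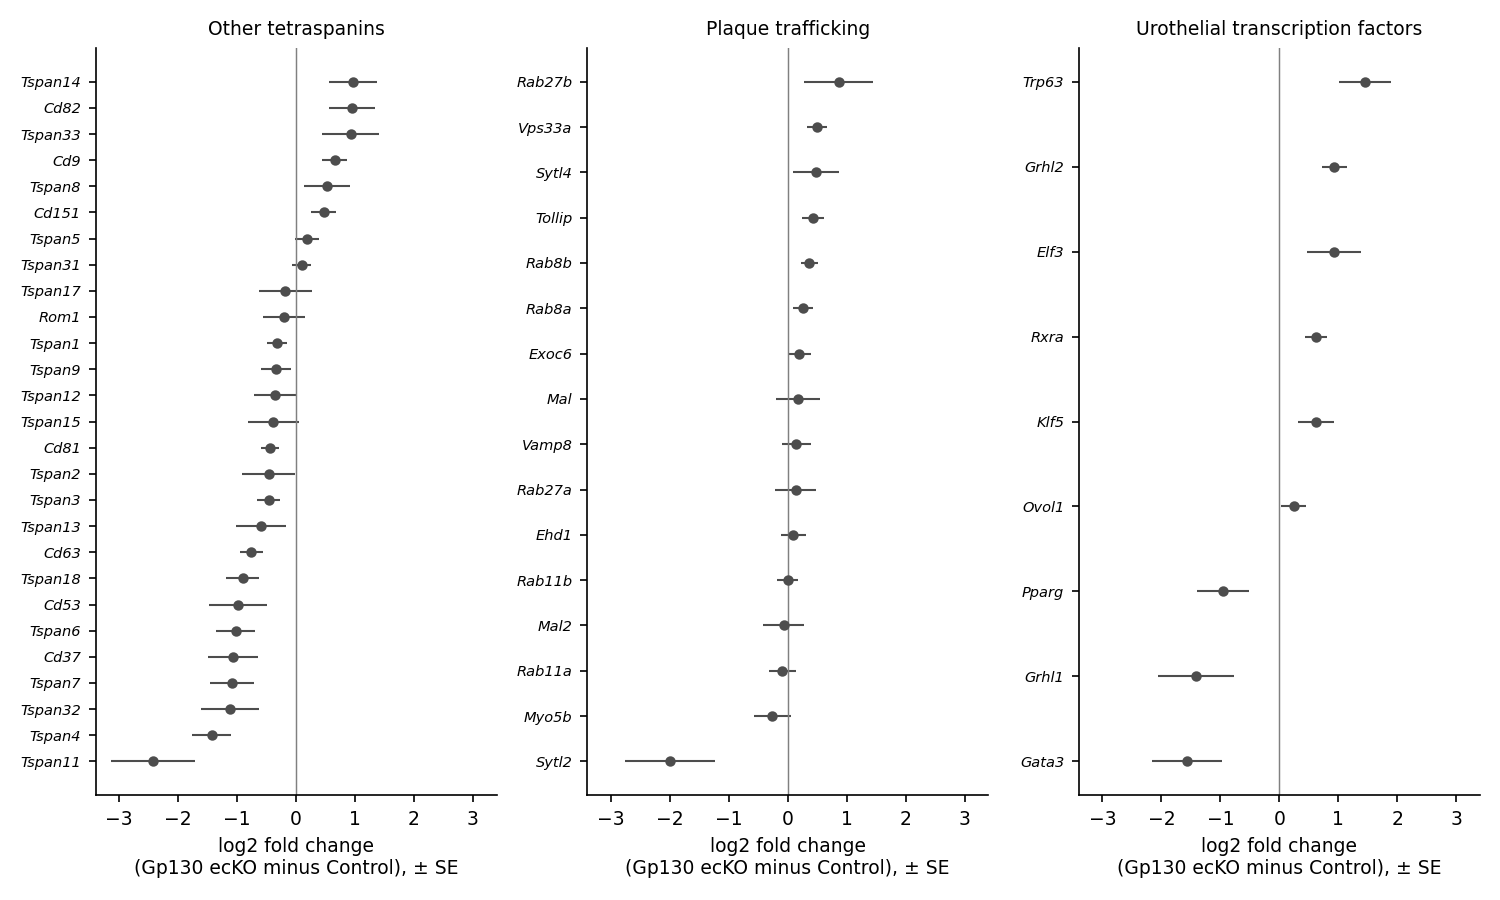
Fitted log2 fold change (*Gp130* ecKO minus control) with its standard error for each tested gene of the tetraspanin, plaque trafficking and urothelial transcription factor lists. No gene of the 3 lists was called, and the medians were -0.39, 0.16 and 0.62.

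The chromosomal neighbours of the members were compared next. Within 100 kb of *Upk1a* the annotation holds 18 protein-coding genes, of which 13 were tested and 0 called, with log2 fold changes from -2.43 to 2.61 and a median of 0.00. The nearest tested genes on either side, the cytochrome c oxidase subunit *Cox6b1* and the histone methyltransferase *Kmt2b*, had log2 fold changes of 0.00 and -0.03. Near *Upk1b*, the tested neighbours were *B4galt4* (log2 fold change -0.38), *Igsf11* (-2.18) and *Arhgap31* (-0.94). The neighbourhoods of *Upk2*, *Upk3a* and *Upk3b* held 7, 3 and 7 tested genes, and 0 of them were called.

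Among the neighbours of *Upk3b*, the one whose start lies nearest is its uroplakin-like relative *Upk3bl* (ENSMUSG00000006143; chr5:136083346-136093180, plus strand), which is no member of the family as taken here. It held 165, 6 and 65 counts in controls and 399, 31 and 23 counts in *Gp130* ecKO, so its values overlapped and the highest and the lowest uterus were in different groups. Its log2 fold change was 0.84 (SE 1.29; edgeR adjusted p = 0.706), and -1.78 without *Gp130* ecKO 1. The order of the uteri for *Upk3bl* was thus unlike that for *Upk3b*. Its promoter entry holds 1 Grainyhead match, AACCAGTT, from 9 to 2 bases before the start.

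**Figure D5:**
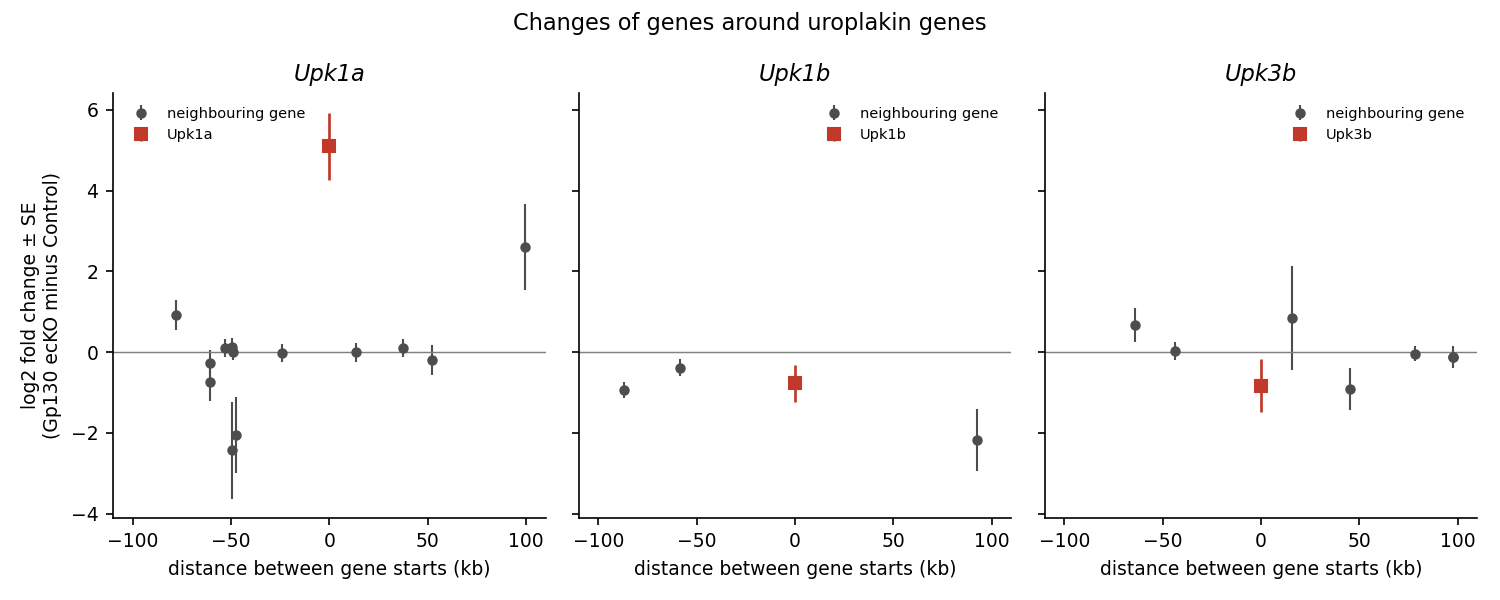
Fitted log2 fold change (*Gp130* ecKO minus control) with its standard error for tested protein-coding genes, against the distance in kb from the start of *Upk1a*, *Upk1b* and *Upk3b*, within 100 kb. *Upk1a* stands at 5.10 among neighbours that run from -2.43 to 2.61.

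To see whether reads of the members could belong to other genes, all 75-base windows of the annotated transcripts of the 5 members, 1354 for *Upk1a*, 3990 for *Upk1b*, 1083 for *Upk2*, 1039 for *Upk3a* and 3675 for *Upk3b*, were looked up among the transcripts of all other genes on the same strand, and 0 were shared. On the opposite strand, beside the share of *Upk2* given above, 3.89% of the windows of *Upk3b* were shared with the long noncoding RNA *Gm71213*.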

How the data were processed

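The deposited tables were made by the authors with RSEM v1.3.3 after fastp v0.23.2 trimming, ribosomal read removal and STAR v2.7.10a mapping to GRCm39, with 1 table per uterus. Expected counts, estimated by the authors per gene and not normalized, were rounded to whole numbers. TPM values are the authors' own, per effective length and library. The deposited FPKM values were not used. Symbols and coordinates came from GENCODE M39, which held 56017 of the 56748 identifiers.

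Counts were fitted over all genes with edgeR v4.0.16 (R v4.3.3): TMM, filterByExpr (16605 genes), quasi-likelihood test, Benjamini-Hochberg adjustment. A gene was called at an adjusted p below 0.05 with more than a 2-fold difference. Each standard error of a fitted log2 fold change is its absolute value divided by the square root of the quasi-likelihood F statistic. It therefore restates that test's statistic, also for the members. CPM values use TMM-normalized library sizes. Alternatives included DESeq2 v1.42.0, other scaling, filters and pseudocounts, and leaving out each uterus. The fit was tested on simulated data.

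The members and lists were chosen with earlier results of these data known. Named were the members, the called genes of each list, else some of the 3 most abundant and 2 most changed, the 5 genes most like each detected member (1 of those for *Upk1a* is not reported here), and the nearest tested neighbours. Values of *Lrrn4*, *Msln*, *Dnah5*, *Foxa2*, *Cxcl15*, *Lif* and the genes at or near 0, and the name of *Tspan6*, were added after they were seen. Library totals of 13960748 to 25906443 set the counting error of the low members.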

Additional observations from a re-analysis of the deposited data

How the results depend on the processing

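The 26 called genes (21 higher, 5 lower) became 7 (6, 1) with the legacy quasi-likelihood test, 1252 (622, 630) with edgeR's exact test, 1317 (651, 666) with its likelihood ratio test, 1546 (733, 813) with DESeq2 and 105 (74, 31) without a filter. Leaving out 1 uterus gave 1 to 897 calls, 1 to 585 higher and 0 to 312 lower, with 897 without control 2 and 3 without *Gp130* ecKO 2. As a share of all tested genes, the calls were 7.54% with the exact test, 7.93% with the likelihood ratio test, 9.31% with DESeq2 and 5.23% without control 2. Uroplakins called rose from 0 to 1, *Upk1a*, with the exact test, the likelihood ratio test, DESeq2 and no filter, and were 0 to 1 with 1 uterus left out (1 without control 2 or without *Gp130* ecKO 2), which is a description, since this contrast chose the family. Tetraspanins called rose from 0 to 2, 2 and 3 with the exact test, the likelihood ratio test and DESeq2, and were 0 to 1 with 1 uterus left out, as were the transcription factors. The causes were not tested.

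The log2 difference of *Upk1a* was 3.97 on log2(TPM + 0.5) and 3.44 on log2(CPM + 1), where the pseudocount exceeds or nears the control values. With 1 uterus left out it ran from 4.49 to 5.60, that of *Upk1b* from -1.16 to -0.42 and that of *Upk3b* from -1.48 to -0.18. No other test, scaling of libraries, filter, pseudocount or left-out uterus turned the sign of these 3 members. Levels set against the mesothelial sum did so for *Upk1b* and *Upk3b*, but the larger part of that sum is *Wt1* and *Aldh1a2*, which uterine stroma also expresses. Averaging log2 levels in place of sums turned the sign of none of the 11 marker lists, and *Upk3bl* reversed to -1.78 without *Gp130* ecKO 1.

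Deviations of same-numbered uteri correlated at 0.104, 0.069 and -0.196, and those of differently numbered uteri at -0.311 to 0.22. With 3 uteri per group these values cannot decide whether the numbers pair the uteri, and the labels do not say. With the replicate number as a block, 6 genes were called (4 higher, 2 lower), and *Upk1a*, *Upk1b* and *Upk3b* had log2 fold changes of 4.77, -0.78 and -0.68. Counts of *Upk2* leave small differences out of reach, and 0 counts of *Upk3a* allow no comparison.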

Other observations

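*Upk3bl* had its highest level in *Gp130* ecKO 1 and its lowest in control 2, at 18.0 and 0.231 CPM, a pattern noticed after the values were seen. The gland serine protease gene *Prss29* had its extremes in the same uteri, at 6546 and 1.70 CPM, as did *Prss28*, at 1876 and 0.463 CPM. Control 1 held the second highest value of each, at 6.68 CPM for *Upk3bl*, 523.1 CPM for *Prss29* and 177.8 CPM for *Prss28*. The other gland markers ran differently: *Cxcl15* was lowest in *Gp130* ecKO 1, at 17.3 CPM, *Foxa2* was highest in *Gp130* ecKO 3, at 43.4 CPM, *Spink1* was highest in control 1 and lowest in *Gp130* ecKO 3, and *Lif* was lowest in control 1. The cause of this variation was not tested.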
